A study of Mus musculus with 168 samples.

Results

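Gene expression in the hippocampus of heterozygous Q140 mice was compared between 10 and 2 months of age. The libraries were chosen by their titles, which give genotype, age and sex, and comprised the 8 of Het (Q140) mice at 10 months and the 8 at 2 months, 16 of the 168 libraries of the series. A Q140 mouse carries one wild-type copy of Htt and one copy with a human HTT exon 1 whose CAG repeat is expanded. Htt encodes huntingtin, and the expanded repeat causes Huntington's disease in people. All mice were of the C57BL/6 strain background and had no other allele or treatment according to the labels. The labels give the Q140 mice as housed with Het (Q140) mice, and the methods describe cages shared by HET and WT mice. Each age had 4 females and 4 males, and the mice of different ages are different animals. A further 8 libraries of Q140 mice at 6 months and 32 of the controls at 2 and 10 months (WT, without a knock-in, and Q20, which carries a repeat of unexpanded length) served for comparison. Q140 is a single knock-in line, and the libraries were made from whole dissected hippocampus, so fewer cells of a type and less RNA per cell cannot be told apart in any value below. The ages were sequenced in separate runs, with a separate series of library numbers for each age. Age and run therefore cannot be told apart within Q140 alone.

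Total counts were 34.4 to 41.5 M in the libraries of 2 months and 31.5 to 41.4 M in those of 10 months. One library, female 4 of 2 months, stood apart from all the others of Q140 at these ages. Its standardized connectivity (a measure of how closely a library resembles the rest of its age) was -51.2, against -1.25 or higher in the other 15. In it, 1997 of 16475 genes (12.1%) were more than 2-fold away from the mean of the other 7 libraries of its group, while each of those 7 had 36 to 74 such genes. Transcripts encoded in the mitochondrial genome made up 3.13% of its counts, against 8.10 to 9.82% in the other 15. Summed cytosolic ribosomal protein transcripts reached 16700 CPM (counts scaled to library size) in it and 9190 to 9990 CPM in the other 7. It was kept in the main comparison, and many results are also given without it. The list counts without it, and the members named from that fit, were added after the data were seen. Markers of the labelled tissue were present at both ages: the dentate granule cell gene Prox1 had mean levels of 127 and 126 CPM at 2 and 10 months, and the CA1 gene Fibcd1 144 and 146 CPM.

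The hippocampus keeps a small population of dividing neural progenitors in the dentate gyrus, whose daughter cells pass through an immature neuronal stage before they join the granule cell layer. This production of neurons is known to decline as mice age. Microglia, the resident phagocytes, and the complement proteins that tag synapses and debris for them are known to become more prominent in the ageing brain. Oligodendrocytes go on forming from precursors in the adult and pass through a short stage marked by the receptor Gpr17.

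Between 2 and 10 months, 47 genes rose and 38 fell in Q140 hippocampus, 0.285% and 0.231% of the 16475 genes tested (edgeR quasi-likelihood F test with a sex term, adjusted p under 0.05). These shares over all genes go with each count of list members called with all libraries below. The genes that fell included several of dividing and immature neural cells, with Igfbpl1 the gene of lowest p, and the genes that rose included the complement component C4b, the microglial integrin Itgam, the antigen-presenting gene H2-Q7 and the protocadherin Pcdhb9. Of the genes called, 48 had 8 levels at one age that did not overlap the 8 at the other, which holds for 0.498% of all genes tested. Genes named below for the largest changes or the lowest p were taken only from those without overlap. For them the lack of overlap is a condition of choice and no separate result. Without female 4 of 2 months, 940 genes rose and 997 fell, 5.68% and 6.03% of 16545 tested. All 85 genes called with it were also called without it, in the same direction. With any other single library left out the count ran from 44 genes without male 4 of 2 months (27 rose, 17 fell) to 139 without female 3 of 2 months (82 rose, 57 fell).

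**Figure D1:**
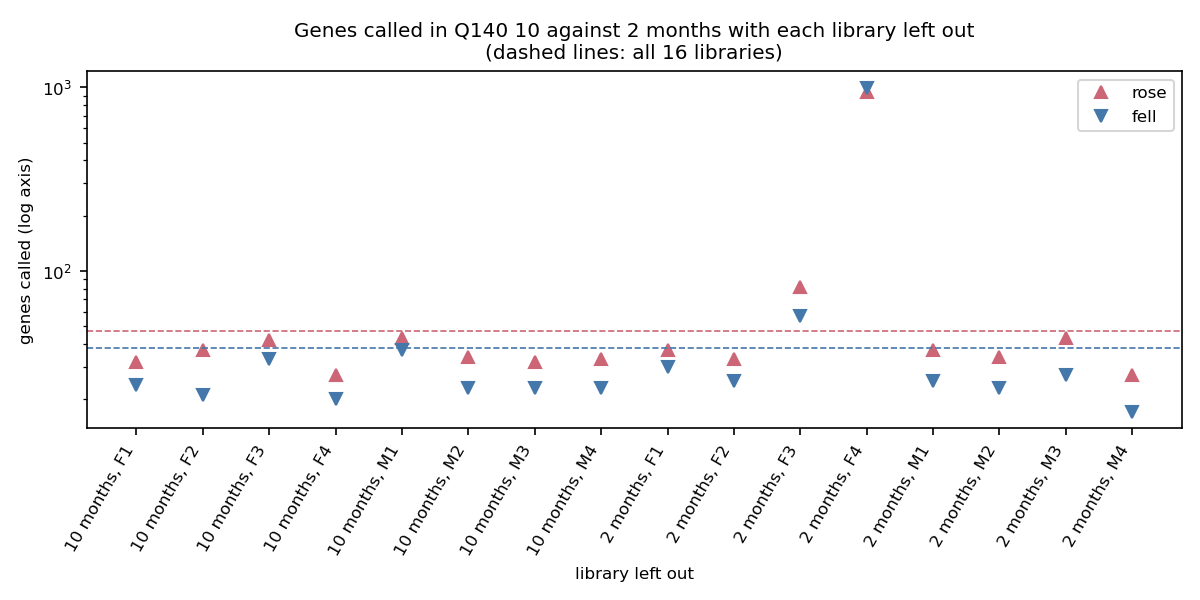
Number of genes that rose (upward triangles) and fell (downward triangles) between 2 and 10 months with each of the 16 Q140 libraries left out in turn, on a log axis, with dashed lines at the counts of all 16 (47 and 38). Leaving out female 4 of 2 months gave 940 and 997 genes, and no other library gave more than 82 in one direction.

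Htt itself did not pass the test. Its level ran from 171 to 220 CPM at 2 months (median 193) and from 185 to 211 CPM at 10 months (median 193), so the ages overlapped. The log2 difference was 0.02 ± 0.06 (SE, adjusted p = 0.959). These reads do not separate the knock-in allele from the wild-type one.

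Of the 12 tested genes of dividing progenitors, 2 fell and none rose, and the other 10 also had lower fitted levels at 10 months. Lower fitted levels held for 7859 of all 16475 genes. The median log2 difference of the 12 was -0.43, beside 0.01 over all genes tested. Top2a, the topoisomerase that untangles DNA in dividing cells, lay between 1.17 and 2.02 CPM at 2 months (median 1.63) and between 0.514 and 0.835 CPM at 10 months (median 0.681). The ages did not overlap. Top2a fell by 1.28 on the log2 scale (SE 0.13, adjusted p = 7.33e-05). Cenpf, a kinetochore protein of mitotic cells, lay between 1.05 and 1.39 CPM at 2 months (median 1.30) and between 0.578 and 0.863 CPM at 10 months (median 0.669). Its levels at 2 and 10 months did not overlap either, and it fell by 0.85 on the log2 scale (SE 0.12, adjusted p = 0.00196).

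Outside that list, 2 further genes of dividing cells fell. Rrm2, the small subunit of the reductase that makes DNA precursors, had 1.34 ± 0.206 CPM at 2 months and 0.756 ± 0.0887 CPM at 10 months (SD, n = 8 each). It fell by 0.81 on the log2 scale (SE 0.12, adjusted p = 0.0032). Kif22, a kinesin that moves chromosomes, had 1.45 ± 0.317 CPM and 0.882 ± 0.153 CPM. It fell by 0.71 (SE 0.15, adjusted p = 0.0366), and the highest of its 8 levels at 2 months, 2.18 CPM, was that of female 4.

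Without female 4 8 of 12 genes of the dividing progenitor list fell, where 6.03% of all genes did, with a median log2 difference of -0.53, beside 0.00 over all genes. Mki67, the proliferation marker Ki-67, was among the 6 genes added, and it is named here after its values were seen. It lay between 2.63 and 4.22 CPM in the 7 libraries of 2 months and between 2.02 and 3.24 CPM at 10 months, and it fell by 0.52 (SE 0.12, adjusted p = 0.0151). With female 4, whose level was 2.15 CPM, its adjusted p was 0.212. Summed over the list, the level was 22.2 to 24.9 CPM in the 7 libraries, 16.8 CPM in female 4 and 16.5 to 19.3 CPM at 10 months.

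The 250 bases before the start of transcription of Top2a and Cenpf are shown because these are the list members that fell with all libraries included. Both are RefSeq sequences of build GRCm38.p6, minus strand, at chr11:99024190-99024439 for Top2a and chr1:189688087-189688336 for Cenpf. Capitals mark the CCAAT box and the letters TTTGAA, an element found at genes of the cell cycle, each searched on both strands (ATTGG and TTCAAA on the other).
Top2a: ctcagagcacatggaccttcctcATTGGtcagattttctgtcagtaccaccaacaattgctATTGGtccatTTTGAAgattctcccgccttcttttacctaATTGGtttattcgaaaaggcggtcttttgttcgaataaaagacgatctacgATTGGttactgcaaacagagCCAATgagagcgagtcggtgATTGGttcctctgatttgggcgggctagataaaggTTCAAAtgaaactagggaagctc
Cenpf: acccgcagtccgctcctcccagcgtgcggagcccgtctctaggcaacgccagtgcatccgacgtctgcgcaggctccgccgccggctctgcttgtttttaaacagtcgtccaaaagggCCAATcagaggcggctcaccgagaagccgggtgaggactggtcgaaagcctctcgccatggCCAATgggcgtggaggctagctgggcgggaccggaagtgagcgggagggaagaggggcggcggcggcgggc
The Top2a window held 6 matches to CCAAT and 2 to TTTGAA, and the Cenpf window held 2 and 0, with no overlap between matches. Of the 12 tested list members, 11 had a promoter in the table, 9 of them with CCAAT and 6 with TTTGAA in at least one window. Of all 27025 genes with a window of this length in the table, 37.5% held CCAAT and 18.3% held TTTGAA in at least one. Those genes were not limited to the ones tested here, unlike the list members, so the 2 sets are not alike. A match of letters is a description and does not show that a factor binds there.

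Of the 11 immature neuron genes, 3 fell and none rose. Igfbpl1, a secreted protein marking newborn neurons, showed the lowest p of all genes tested. Its levels at 2 months ran from 1.77 to 3.08 CPM (median 2.26) and at 10 months from 0.121 to 0.490 CPM (median 0.244), with 0.342 to 1.56 CPM at 6 months. The 2- and 10-month levels lay far apart, and the log2 difference of -3.16 ± 0.20 (SE, adjusted p = 5.11e-07) was the largest fall among the named genes. Draxin, a repellent guidance cue for growing axons, lay between 0.981 and 1.27 CPM at 2 months and between 0.368 and 0.695 CPM at 10 months. It fell by 1.19 (SE 0.14, adjusted p = 0.000545). Nhlh1, a transcription factor of young neurons, lay between 0.980 and 1.63 CPM at 2 months and between 0.441 and 0.963 CPM at 10 months, with no overlap. It fell by 0.99 (SE 0.17, adjusted p = 0.0113).

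The median log2 difference of all 11 genes was -0.05. Eomes, a transcription factor of intermediate progenitors, had means of 0.973 and 0.224 CPM but did not pass the test (log2 -2.19, adjusted p = 0.201). Without female 4, Eomes fell (adjusted p = 0.0497) and the neuropeptide gene Tac2 rose, so that 4 of 11 fell and 1 rose. Of all genes tested in that fit, 6.03% fell and 5.68% rose. The summed level of the list ran from 100 to 122 CPM in the 7 libraries other than female 4 (63.9 CPM) and from 85.3 to 107 CPM at 10 months, so the ages overlapped. Gpc2, a heparan sulphate proteoglycan of developing axons that is not on the list, fell from 4.91 ± 0.412 to 3.67 ± 0.401 CPM (SD, n = 8 each; log2 -0.42 ± 0.08 SE, adjusted p = 0.024). Of the 15 genes of axon growth and the young neuron cytoskeleton, none passed the test with all libraries. Without female 4, Tubb3, Gap43 and Mapt rose and Dpysl3 and Nrep fell.

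**Figure D2:**
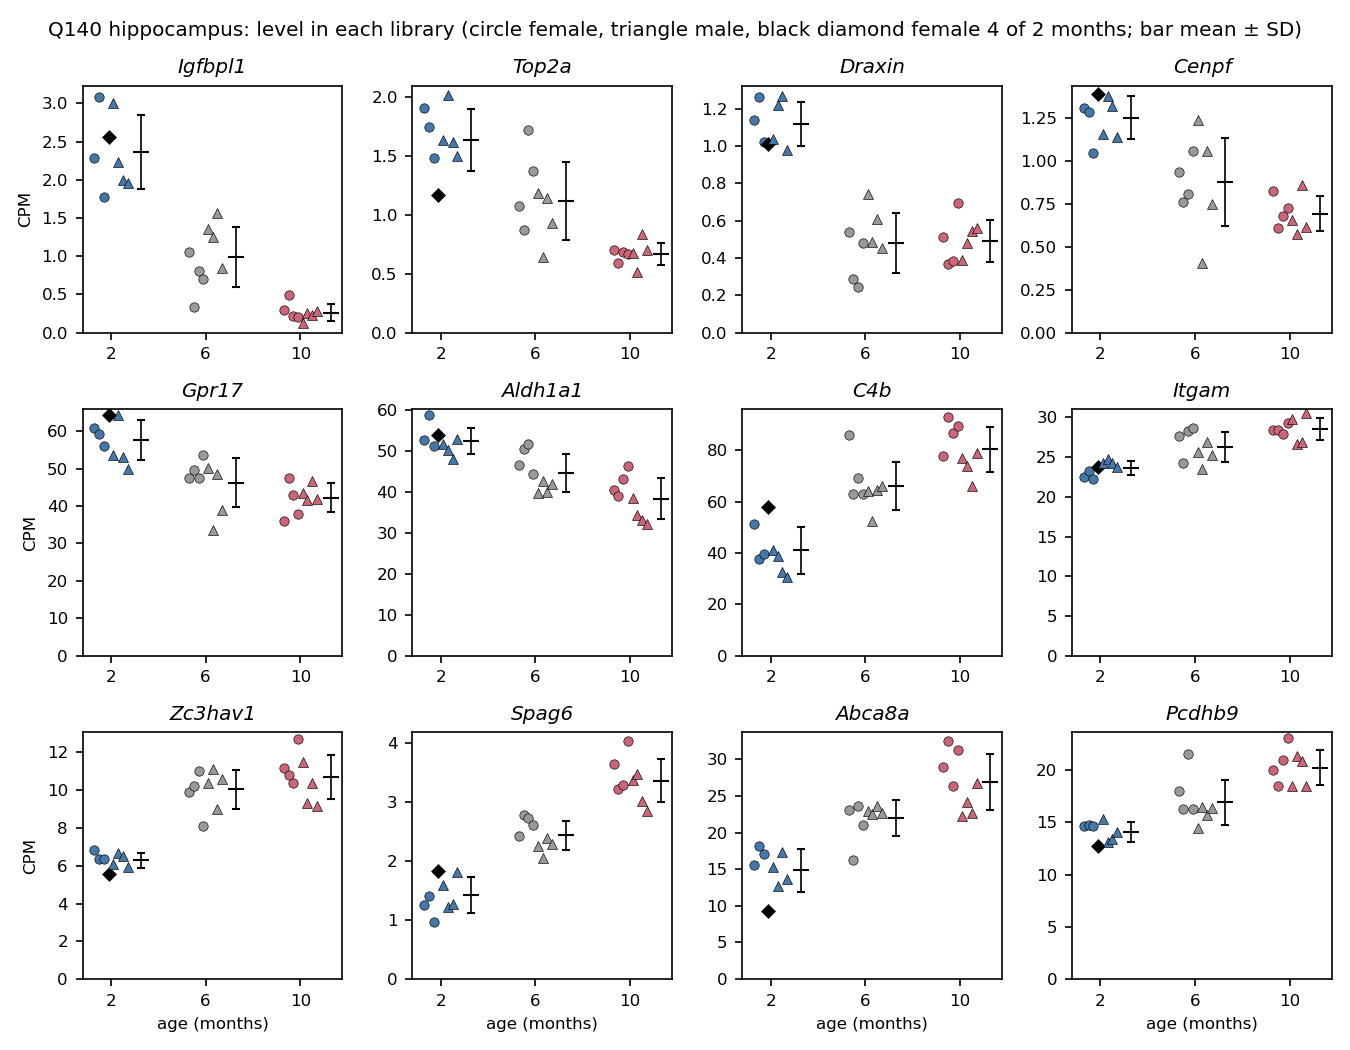
Levels in CPM (vertical axes, starting at 0) of 12 genes in each Q140 library at 2, 6 and 10 months, with circles for females, triangles for males, a black diamond for female 4 of 2 months, and bars for the mean ± SD of 8 libraries. The 2- and 10-month points of each of these 12 genes do not overlap, which was a condition of naming for all but Itgam and Pcdhb9. The 6-month mean lies between them for all but Draxin (0.480 CPM at 6 and 0.492 CPM at 10 months).

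Gpr17, the receptor of newly formed oligodendrocytes, fell, and the rest of its list did not pass the test. Its level ran from 49.8 to 64.3 CPM at 2 months (median 57.7) and from 36.0 to 47.6 CPM at 10 months (median 42.4), with no overlap. The log2 difference was -0.45 ± 0.07 (SE, adjusted p = 0.00453). It was 1 of the 12 tested genes of oligodendrocyte precursors and newly formed oligodendrocytes, whose median was 0.05.

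Of 19 myelin genes, 1 rose with all libraries. This was Anln, an actin-binding protein that is also found in myelin, which had 42.6 ± 6.08 CPM at 2 months and 63.0 ± 13.3 CPM at 10 months. The ages overlapped in part (log2 0.54 ± 0.12 SE, adjusted p = 0.0448). Without female 4, Apod rose as well (log2 0.43, adjusted p = 0.0106), and Mal (-0.49, adjusted p = 0.0215), Cldn11 (-0.45, adjusted p = 0.0401) and Ugt8a (-0.51, adjusted p = 0.00956) fell. In that fit 5.68% of all genes rose and 6.03% fell. Ugt8a makes the galactolipids of myelin, and Cldn11 forms its tight junctions. Summed over the list, the myelin level ran from 3960 to 6640 CPM in the other 7 libraries of 2 months, was 9220 CPM in female 4 and ran from 3530 to 6260 CPM at 10 months.

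With all libraries, 1 of 11 complement genes and 1 of 13 microglial genes rose, and none fell. C4b, the mouse complement component 4, lay between 30.6 and 57.9 CPM at 2 months (median 39.1) and between 66.1 and 92.8 CPM at 10 months (median 78.4). No library of 2 months reached the lowest of 10 months, and C4b rose by 0.97 on the log2 scale (SE 0.09, adjusted p = 3.1e-05). C4b has a close homologue nearby in the genome, C4a, and reads of near-identical copies could be split in counting. Of the other 10 tested complement genes none passed the test with all libraries, and the list median was 0.18.

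Itgam, the integrin CD11b, was the one microglial gene of 13 to pass. It lay between 22.2 and 24.8 CPM at 2 months and between 26.7 and 30.6 CPM at 10 months, with no overlap (log2 0.27 ± 0.04 SE, adjusted p = 0.00527). Of the 13 microglial genes, 12 had a higher fitted level at 10 months, with a median of 0.18. Higher fitted levels held for 8616 of all 16475 genes. A further 3 genes known from microglia and other blood-lineage cells rose outside the list and are named after their values were seen. They were picked from the called genes, and no count is given of such genes that did not rise. Ctss, a lysosomal protease, rose by 0.28 on the log2 scale (adjusted p = 0.0482), Mpeg1, a pore-forming protein of phagocytes, by 0.28 (adjusted p = 0.0189), and Dock2, a regulator of leukocyte movement, by 0.35 (adjusted p = 0.0136).

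Without female 4, 7 of 13 microglial and 4 of 11 complement genes rose and none fell, where 5.68% of all genes rose. The complement genes were C4b and the chains of C1q, which starts the classical pathway. C1qa lay between 23.8 and 29.8 CPM in 7 libraries of 2 months and between 31 and 38.6 CPM at 10 months (log2 0.35 ± 0.06 SE, adjusted p = 0.00257). In female 4 it was 52.0 CPM, above every library of 10 months, and with that library its adjusted p was 0.603. The microglial genes were Itgam, Sall1, Trem2, Tmem119, Cx3cr1, Csf1r and Siglech. Trem2, a lipid-sensing receptor of microglia, had 8.67 ± 0.443 CPM in the 7 libraries and 10.6 ± 0.808 CPM at 10 months (log2 0.28 ± 0.05 SE, adjusted p = 0.00643). The summed microglial level was 353 to 402 CPM in the 7 libraries, 425 CPM in female 4 and 410 to 452 CPM at 10 months. The list of activated microglia and phagocytes, with 11 genes tested, had none past the test with all libraries and 2 (Cd68 and Lyz2) without female 4. Its summed level was 120 to 135 CPM at 2 months and 122 to 137 CPM at 10 months.

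H2-Q7, a non-classical MHC class I gene, was the 1 gene of 13 in class I presentation that rose. It lay between 0.822 and 1.89 CPM at 2 months and between 1.55 and 4.20 CPM at 10 months. The ages overlapped in part (log2 1.04 ± 0.18 SE, adjusted p = 0.0113). H2-Q7 belongs to a family of near-identical genes, and how the counting divided their reads is uncertain. Without female 4, 6 of the 13 rose and none fell, where 5.68% of all genes rose and 6.03% fell. Among those 6 was Tap2, a subunit of the peptide transporter. Tap2 lay between 5.76 and 8.77 CPM in 7 libraries of 2 months and between 8.93 and 10.4 CPM at 10 months (log2 0.43 ± 0.08 SE, adjusted p = 0.00503), with 12.6 CPM in female 4. None of 6 class II genes and none of 18 interferon response genes passed with all libraries, and 4 of the latter (Ifi27, Ifit3, Lgals3bp and Ifih1) rose without female 4. Zc3hav1, an antiviral RNA-binding protein that is not on that list, lay between 5.55 and 6.83 CPM at 2 months and between 9.18 and 12.7 CPM at 10 months. Its ages did not overlap, and it rose by 0.76 (SE 0.07, adjusted p = 3.1e-05).

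Many of the named genes with the largest rises were at low levels. Frem3, an extracellular matrix protein, lay between 0.490 and 1.51 CPM at 2 months and between 2.39 and 2.77 CPM at 10 months (log2 1.25 ± 0.17 SE, adjusted p = 0.00177). Spag6, a protein of the central apparatus of motile cilia and sperm tails, lay between 0.972 and 1.82 CPM and between 2.84 and 4.02 CPM (log2 1.24 ± 0.13 SE, adjusted p = 8.02e-05). None of the 10 ependymal and motile cilia genes of the fixed list passed the test. Their summed level ran from 8.90 to 39.3 CPM at 2 months and from 13.9 to 35.7 CPM at 10 months. Upk1b, a tetraspanin best known from the bladder lining, had 1.07 ± 0.146 CPM and 2.10 ± 0.188 CPM (log2 0.98 ± 0.09 SE, adjusted p = 3.1e-05).

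Further genes were named among the largest rises. Abca8a, a lipid transporter of the ABC family, lay between 9.27 and 18.1 CPM at 2 months and between 22.2 and 32.5 CPM at 10 months, and rose by 0.84 (SE 0.12, adjusted p = 0.00199). Ntn5, a netrin, had 2.31 ± 0.521 CPM and 4.11 ± 0.320 CPM and rose by 0.84 (SE 0.11, adjusted p = 0.00177). Txlnb, a taxilin, Acss3, a mitochondrial acyl-CoA synthetase, and Col2a1, a fibrillar collagen, rose by 0.94 to 0.96. Their adjusted p-values were 0.019, 0.0136 and 0.00561. Mlph, a linker of melanosomes to myosin, rose by 0.66 and Rnf207, a ring finger protein, by 0.59. These 5 genes, like the others named for the largest rises, were eligible only where the ages did not overlap.

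Among the other falls, Aldh1a1, a dehydrogenase that makes retinoic acid, lay between 48 and 58.9 CPM at 2 months and between 32.1 and 46.3 CPM at 10 months. The ages did not overlap, and it fell by 0.46 (SE 0.06, adjusted p = 0.000812). Cyp26b1, which breaks down retinoic acid, fell by 0.72 (adjusted p = 0.0323) and is named after its values were seen. Slc38a5, a glutamine transporter, had 3.55 ± 0.467 CPM and 2.14 ± 0.367 CPM (log2 -0.73 ± 0.11 SE, adjusted p = 0.00531). Gpx8, a peroxidase of the endoplasmic reticulum, had 3.70 ± 0.717 CPM and 1.98 ± 0.409 CPM (log2 -0.91 ± 0.13 SE, adjusted p = 0.00222).

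Of 18 tested collagens and partners, Col5a1 rose (log2 0.48 ± 0.10 SE, adjusted p = 0.04) and Col15a1 fell (log2 -0.55 ± 0.10 SE, adjusted p = 0.0219). Col15a1 is a basement membrane collagen with 7.35 ± 1.33 CPM at 2 months and 5.0 ± 0.705 CPM at 10 months, and the ages overlapped in part. Col2a1, described above, is not on that list. Of 9 perineuronal net and lectican genes, Tnc, the matrix glycoprotein tenascin C, fell from 7.73 ± 1.32 to 5.21 ± 1.41 CPM (adjusted p = 0.0448). Of 12 endothelial genes, Ly6c1 fell from 28.7 ± 4.07 to 23 ± 3.0 CPM (adjusted p = 0.0323), and 11 of the 12 had lower fitted levels at 10 months. Lower fitted levels held for 7859 of all 16475 genes. Without female 4, 5 of the collagen list rose and 3 fell, and 3 endothelial genes (Ly6c1, Pecam1 and Tek) fell. Of all genes tested in that fit, 5.68% rose and 6.03% fell. None of the 9 pericyte, 9 meningeal, 5 red blood cell and 11 choroid plexus genes passed. The summed choroid plexus level ran from 40.2 to 62.4 CPM at 2 months and from 41.1 to 158 CPM at 10 months, that of meninges from 91.6 to 189 CPM and from 90.6 to 151 CPM.

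Among markers of hippocampal neurons, 1 gene passed with all libraries. Iyd, a deiodinase listed with CA2 and CA3 pyramidal neurons, lay between 3.29 and 5.73 CPM at 2 months and between 2.42 and 3.5 CPM at 10 months (log2 -0.59 ± 0.11 SE, adjusted p = 0.0196). None of 9 CA1, 12 dentate granule cell and 16 interneuron genes passed. Without female 4, the CA1 gene Wfs1 fell, 4 of 12 dentate granule cell genes (Lct, Tdo2, Trpc6 and Rfx3) and 4 of 10 CA2 and CA3 genes fell, and none rose. Of all genes tested in that fit, 6.03% fell and 5.68% rose. Trpc6, a cation channel, lay between 19.1 and 24.3 CPM in 7 libraries of 2 months and between 11.3 and 18.7 CPM at 10 months (log2 -0.45 ± 0.09 SE, adjusted p = 0.00705). In female 4 it was 9.25 CPM, and the summed dentate level in that library, 398 CPM, was below the 629 to 772 CPM of the other 7. At 10 months the dentate sum ran from 406 to 789 CPM, so the ages overlapped. In the same fit, 2 interneuron genes, the GABA transporter Slc32a1 and the transcription factor Lhx6, rose.

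The genes of striatal projection neurons, the cells most affected in Huntington's disease, did not pass in either fit (11 tested, median 0.00 with all libraries). Their summed level was 189 to 213 CPM at 2 months and 184 to 214 CPM at 10 months. Of the receptor genes, none of 22 glutamate and none of 12 GABA-A genes passed with all libraries. Without female 4, the glutamate receptor genes Grm4, Grik3 and Grm8 rose by 0.48, 0.29 and 0.36, Gria1 fell by 0.12, and Gabra5 of the GABA-A list fell by 0.17. In that fit 5.68% of all genes rose and 6.03% fell. Gria2, the AMPA receptor subunit that limits calcium entry, also fell in that fit (1080 ± 53.8 to 976 ± 50.5 CPM, log2 -0.17 ± 0.03 SE, adjusted p = 0.00774). Its level in that library was 380 CPM, and its adjusted p with all libraries was 0.975.

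Pcdhb9, one of the clustered protocadherins that give neurons an adhesive identity, lay between 12.7 and 15.3 CPM at 2 months and between 18.5 and 23.1 CPM at 10 months. It rose by 0.52 (SE 0.06, adjusted p = 0.000375), and the ages did not overlap. It was the 1 gene of 23 in its list to pass, while 22 of the 23 had higher fitted levels at 10 months and the list median was 0.27. Higher fitted levels held for 8616 of all 16475 genes. Without female 4, 8 of the 23 rose, all of the beta cluster, where 5.68% of all genes rose, and the list median was 0.11. Members of this family share sequence, so their counts are not independent of each other.

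No sterol synthesis gene of 22 passed with all libraries. Without female 4, 6 fell (Hmgcs1, Idi1, Cyp51, Dhcr7, Sc5d and Msmo1), where 6.03% of all genes did. Srebf2, the transcription factor that drives this pathway, rose. Idi1, which isomerizes the building block of all isoprenoids, lay between 62.5 and 76.9 CPM in 7 libraries of 2 months and between 49.3 and 57.1 CPM at 10 months, with no overlap. It fell by 0.36 (SE 0.04, adjusted p = 0.000181), and its level in female 4 was 27.2 CPM.

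None of the 12 astrocyte genes passed with all libraries, and without female 4 S100b, a calcium-binding protein, rose and the water channel Aqp4 and the gap junction gene Gja1 fell. Of 15 heat shock chaperones, 3 fell in that fit and none with all libraries. Among 22 immediate early genes, Bdnf and Btg2 fell without female 4, by 0.25 and 0.33. Across all 41 lists, 6 members rose and 10 fell with all libraries, and 12 lists had a member that passed. Without female 4 that was 29 lists, in a fit that also called more of all genes (5.68% rose and 6.03% fell). The median of 6 lists changed sign when this library was left out: axon growth and young neuron cytoskeleton, astrocytes, GABA-A receptor subunits, DNA methylation, the mitochondrially encoded respiratory chain and cytosolic ribosomal proteins. Of the 78 ribosomal protein genes tested, 9 had higher fitted levels at 10 months with all libraries and 41 without female 4. Over all genes these counts were 8616 of 16475 and 8046 of 16545. Of 93 nuclear-encoded respiratory chain genes, none passed with all libraries, and 5 rose and 12 fell without it, where 5.68% and 6.03% of all genes did. The tilt of the change with transcript length also moved with it. With genes split by length into 5 equal bins, the median log2 difference ran from -0.05 in the shortest to 0.05 in the longest with all libraries, and lay between -0.008 and 0.004 in every bin without female 4.

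**Figure D3:**
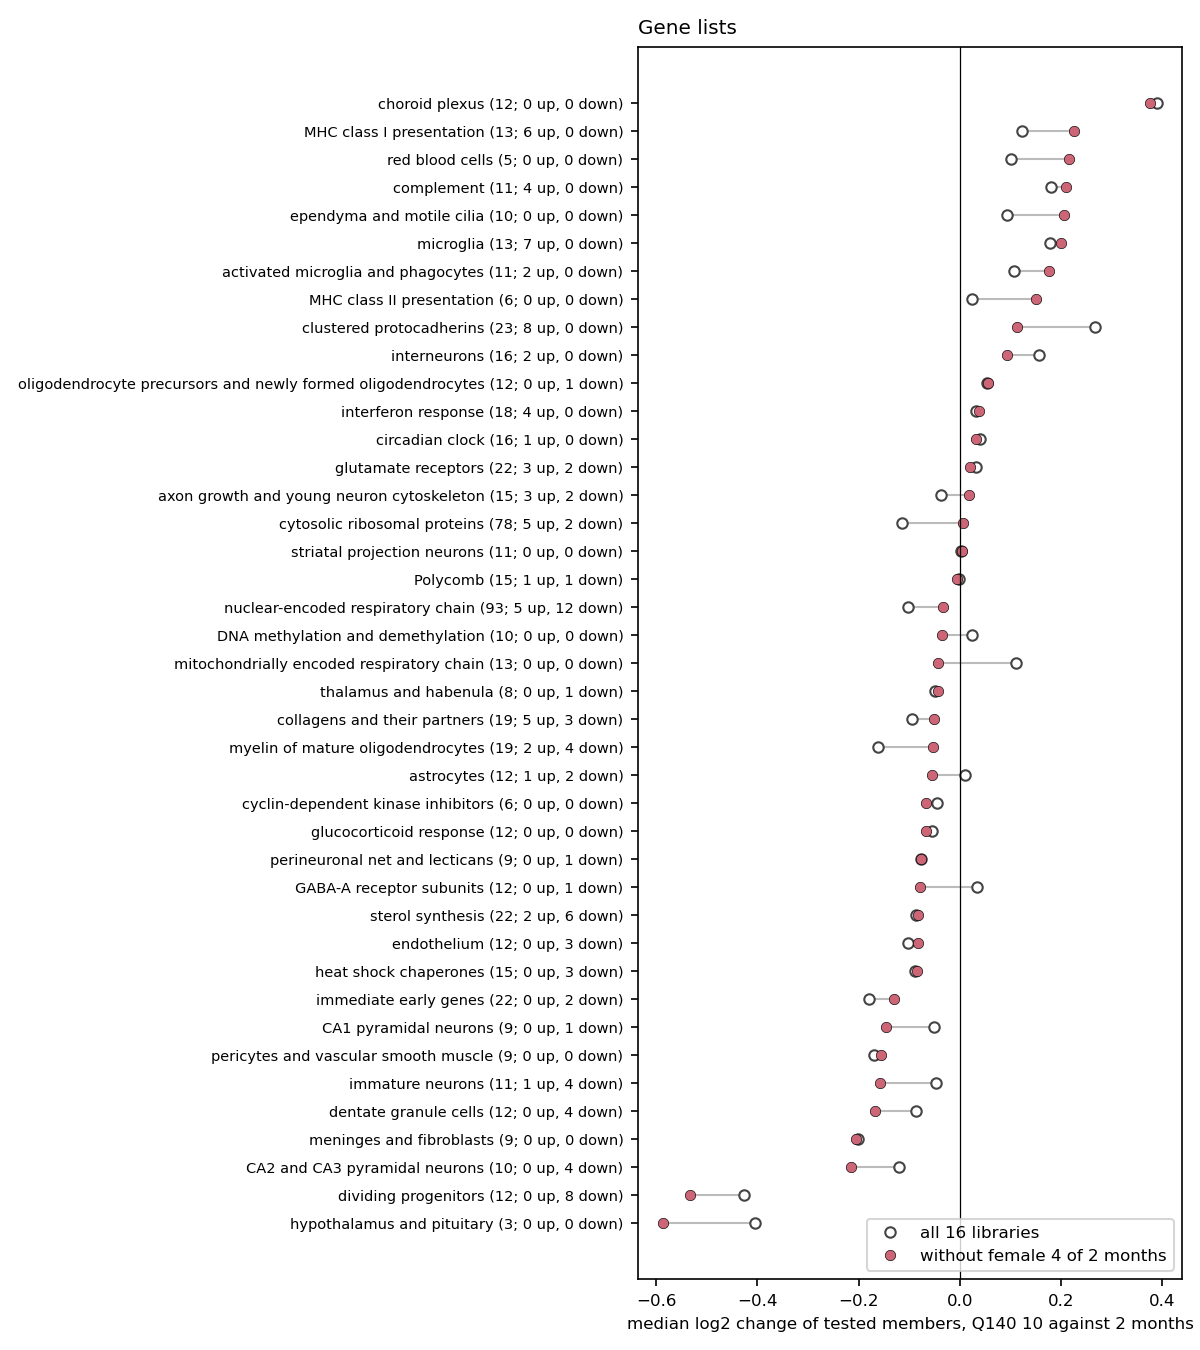
Median log2 change between 2 and 10 months (horizontal axis) of the tested members of each of the 41 lists (vertical axis), with open circles for all 16 libraries and filled circles without female 4 of 2 months; parentheses give the members tested and those that rose and fell in the latter fit. Dividing progenitors lie at -0.43 and -0.53, while the ribosomal list moves from -0.11 to 0.01.

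The Q140 libraries of 6 months were sequenced in a run of their own. In a fit of all 24 Q140 libraries, 967 genes (5.75%) were called between 2 and 6 months and 343 (2.04%) between 6 and 10 months, while 223 were called between 2 and 10 months. The interval with more calls was therefore the one from 2 to 6 months, and more genes were called over it than over the whole span. Without the divergent libraries (female 4 of 2 months and male 1 of 6 months) the counts were 5741 (34.1%) and 2793 (16.6%). Of the 85 genes called between 2 and 10 months, 75 had a 6-month mean between those of the other ages. Without female 4 this held for 958 of 1937 genes. Both sets were chosen by their gap between 2 and 10 months, which favours a 6-month mean between those ages. The share over all genes is not given here.

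The named genes took different courses over the 3 ages. Igfbpl1 fell over both intervals, by 1.27 up to 6 months (adjusted p = 0.00206) and by 1.87 after it (adjusted p = 0.00127). Top2a fell by 0.56 and 0.73 (adjusted p = 0.0342 and 0.023). Draxin fell by 1.23 up to 6 months (adjusted p = 0.000361), with a log2 difference of 0.04 after it, whereas Nhlh1 fell by 0.88 after 6 months (adjusted p = 0.00585), with a log2 difference of -0.11 before it. Zc3hav1 rose by 0.67 up to 6 months (adjusted p = 1.51e-05) and C4b by 0.69 (adjusted p = 0.000128). Their later differences of 0.09 and 0.28 did not pass the test with all libraries, and without the divergent libraries that of C4b did (log2 0.29, adjusted p = 0.0114). Pcdhb9 rose over both intervals, by 0.26 each (adjusted p = 0.0227 and 0.0351). Htt differed as well, with 223 ± 16.2 CPM at 6 months, and rose by 0.20 from 2 to 6 months (adjusted p = 0.0388). Without the divergent libraries it also fell from 6 to 10 months (log2 -0.20, adjusted p = 0.00505).

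Whether the change with age in Q140 differed from that in the controls was tested in a fit of 48 libraries, in which the Q140 and control mice of an age share runs. No gene was called among 17218 (0%), and 572 had an unadjusted p under 0.05. DESeq2 called 1 gene. In the controls alone 380 genes rose and 257 fell between 2 and 10 months (2.21% and 1.49%), in 32 libraries against 16 in Q140. Divergent libraries (connectivity below -5) were kept in these counts. Among the controls they were Q20 female 5 of 10 months (-114), WT female 2 of 10 months (-6.93) and Q20 female 4 of 2 months (-5.59). Of the 85 genes called in Q140, 81 changed in the same direction in the controls and 54 were called there as well, 31 that rose and 23 that fell. The share of all genes with the same direction in both is not given here. The Q140 and control libraries do not overlap, but their ages were sequenced in the same runs, so this is no separate evidence on the run.

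Single genes had close values in Q140 and the controls. Igfbpl1 had log2 differences of -3.15 in Q140 and -3.10 in the controls (difference -0.05 ± 0.34 SE), and C4b 0.97 and 0.96 (difference 0.01 ± 0.12 SE). For Top2a the difference between Q140 and the controls was 0.15 ± 0.23 (SE) and for Itgam 0.14 ± 0.16 (SE). Larger differences that did not pass were those of Nhlh1 (-0.68 ± 0.19 SE, adjusted p = 0.93) and Frem3 (0.50 ± 0.29 SE, adjusted p = 0.93). For the dividing progenitor list the median log2 difference was -0.43 in Q140 and -0.53 in the controls, and for the microglial list 0.18 in both. For the immature neuron list it was -0.05 and -0.35. With all libraries the signs were opposite for cytosolic ribosomal proteins (-0.11 and 0.23) and the nuclear-encoded respiratory chain (-0.10 and 0.18). The list medians of the difference from the controls were then -0.35 and -0.29. They were 0.04 and -0.01 without the divergent libraries of Q140 and the controls.

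Over the other genotypes, 76 of the 85 genes had the direction of Q140 in all 6, from 78 genes in Q20 to 85 in Q175. The share of all genes that do so is not given here. The ages of these genotypes, too, were sequenced in separate runs, so this is no separate evidence on the run. Igfbpl1 lay between -3.92 and -2.57 and C4b between 0.89 and 1.06 in the other 6 genotypes, beside -3.15 and 0.97 for Q140 in a fit of all genotypes at both ages. Frem3 had a log2 difference of 1.25 in Q140 and 0.31 to 1.24 elsewhere. Acss3 was -0.56 in Q20 and 0.17 to 0.93 in the rest, with 0.94 in Q140, and Kif22 ran from -0.47 to 0.15 in the others, with -0.71 in Q140.

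**Figure D4:**
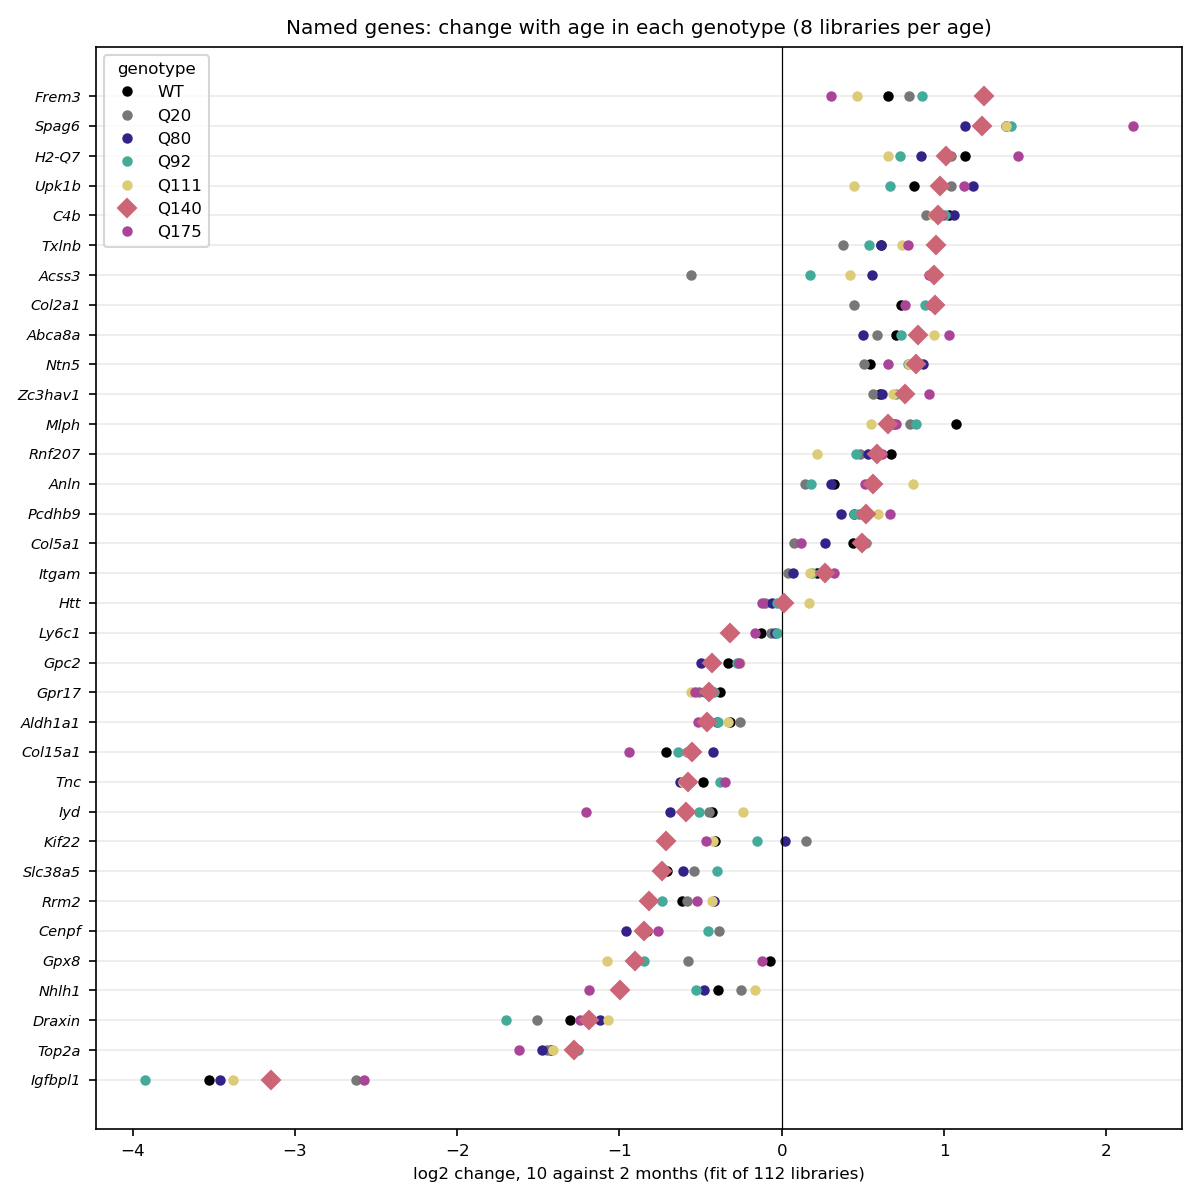
Log2 change between 2 and 10 months (horizontal axis) of Htt and the 33 other named genes (vertical axis) in each of the 7 genotypes, with 8 libraries per age, from one fit of all of them; the diamonds are Q140. Apart from Htt, Acss3 and Kif22, all genotypes lie on one side of 0 for each gene.

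Without the divergent libraries, 3 genes (0.0174% of 17223) changed differently in Q140 than in the controls, all with a lower change in Q140. The libraries left out were Q140 female 4 of 2 months and the divergent control libraries named above. The 3 genes are named after their values were seen. Msmo1 and Hmgcs1 encode enzymes of cholesterol synthesis. Msmo1 lay between 90.8 and 113 CPM in 7 Q140 libraries of 2 months and between 74.9 and 91.1 CPM at 10 months. The difference from the controls was -0.34 ± 0.06 on the log2 scale (SE, adjusted p = 0.0302). Hmgcs1 lay between 255 and 277 CPM and between 224 and 268 CPM (difference -0.24 ± 0.05 SE, adjusted p = 0.0464). The third was Pigc, an enzyme of the glycolipid anchor of membrane proteins, with 13.4 ± 0.725 CPM in the 8 libraries of 2 months and 11.5 ± 0.437 CPM at 10 months (difference -0.29 ± 0.05 SE, adjusted p = 0.025). Pigc also fell between 2 and 10 months in Q140 with all libraries (log2 -0.23, adjusted p = 0.0482). With all libraries the adjusted p-values of the difference were 0.93, 0.93 and 0.134. Without female 4 of the Q140 mice of 2 months alone, no gene passed.

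Females and males were also compared in their change with age. No gene was called (0% of 16475, 299 with an unadjusted p under 0.05, and none by DESeq2). Fitted alone, the males gave 43 genes that rose and 30 that fell, and the females gave none (603 with an unadjusted p under 0.05). Without female 4 of 2 months, the females gave 10 and 6. Aldh1a1 showed the same direction in both sexes, with 40.6, 39.1, 43.1 and 46.3 CPM in the 4 females of 10 months and 38.6, 34.3, 33.2 and 32.1 CPM in the males, beside 48 to 58.9 CPM over the 8 mice of 2 months.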

How the data were processed

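Hippocampal RNA of 168 mice had been sequenced. The authors deposited unscaled expected counts for each gene. Of these values 16.89% were not whole, and all were rounded. Per the labels, reads came from CASAVA 1.8.2. Aligner, quantifier, strand use, annotation and build: not given in the sources used here. Deposited FPKM values were not used. Genes were named through GENCODE M21 (GRCm38), which held 37693 of 39179 identifiers. Promoters are from RefSeq.

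Tests ran in R 4.3.3 with edgeR 4.0.16 (filterByExpr, minimum count 10 and total 15; TMM; quasi-likelihood F test, two-sided; sex term; Benjamini-Hochberg at 0.05). DESeq2 1.42.0 was an alternative. CPM used TMM scaling over all libraries. The method was tested on simulated data. Libraries with connectivity below -5 are called divergent. No pair of libraries within an age of Q140 agreed within sampling noise (lowest chi-square per gene 5.73 over 56 pairs).

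Named genes were Htt, the 12 largest rises and falls among called genes of at least 1 CPM without overlap, the 4 of smallest p in each direction, and up to 3 called members per list. The genes and the 41 lists were chosen with earlier results of these data known. Each library is 1 mouse. The p-values weigh a difference against the spread between mice, and those for ages cannot reflect variation between runs. Results of some list members are not reported here.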

Additional observations from a re-analysis of the deposited data

Results flagged for a closer look

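Of 74 groups of 8 libraries checked (the named genes and Msmo1, Hmgcs1 and Pigc, at 2 and at 10 months), 7 had a library far from the rest, where chance gives about 1 in 20. In 5 of them it was Q140 female 4 of 2 months. Its level was 0.517 CPM for Txlnb (nearest library 1.47 CPM), 1.22 CPM for Mlph (1.8 CPM), 174 CPM for Hmgcs1 (255 CPM) and 59.9 CPM for Msmo1 (90.8 CPM), each the lowest of its group. For Kif22 it was the highest, with 2.18 CPM (1.52 CPM). The others were Igfbpl1 in female 2 of 10 months, with 0.490 CPM (nearest 0.291 CPM), and Hmgcs1 in male 4 of 10 months, with 268 CPM (240 CPM).

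The change with age differed between Q140 and the controls, without the divergent libraries, for Pigc (log2 difference -0.29), Hmgcs1 (-0.24) and Msmo1 (-0.34), by the interaction test given above. With all libraries none passed.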

How the results depend on the processing

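The count of genes called between 2 and 10 months was 85 and moved to 364 with DESeq2, 223 in the fit of 24 Q140 libraries and 0 in females alone. It was 1937 without divergent libraries, which here means without female 4, 16 in females without it (chosen after seeing the data, as was the block without it), and 44 to 1937 with single libraries left out (139 was the second highest). Scaling by RLE, no filter, the lane series, no sex term, the fit of all genotypes and removal of a length trend gave 80 to 108. Replicate numbers do not pair the mice: with the replicate block 23 genes were called, 1023 without divergent libraries, the correlations of same-numbered mice ran from -0.212 to 0.384, and 1 of 8 matched its own number best. Of the 33 named genes other than Htt, 24 were called whichever single library was left out. The sign of Htt, which never passed, turned to -0.013 without divergent libraries or female 4, -0.036 in males, -0.091 with the length trend removed, -0.009 with the block and without divergent libraries, and -0.013 to 0.047 over single libraries left out (-0.001 without female 2 of 10 months, -0.005 without male 4 of 2 months).

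The difference from controls gave 0 genes, 1 with DESeq2, 3 without divergent libraries and 0 to 1 with single libraries left out; WT alone and Q20 alone gave 0. Calls from 2 to 6 months were 967, 1569 with DESeq2 and 5741 without divergent libraries, and from 6 to 10 months 343, 753 and 2793. RLE scaling moved the share of genes that rose among these calls from 62.7 to 52.9%. Depth limits the genes near 1 CPM, and age and run cannot be told apart.
The causes of these changes were not tested.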
